A study of Bubalus bubalis with 8 samples.

Results

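Of 18220 numbered gene IDs of the water buffalo (Bubalus bubalis), 188 had a raised transcript level in the mature MII oocyte compared with the immature GV oocyte. An ID was a member when it had at least 10 FPKM (fragment counts divided by the length of the transcript and by the library's mapped fragments) in the MII library and its log2(FPKM + 1) was at least 2 units, or 4-fold on that scale, above the GV library. The members were thus selected on their measured GV and MII values, which are given below as a description. The 6 later libraries did not enter the choice, and they describe how long the raised level lasted. Their levels are still set against the same GV and MII values that selected the members. A GV value that happened to be low would thus make later levels look raised. The 188 members were 3.04% of the 6184 numbered IDs with at least 10 FPKM in the MII oocyte.

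The study followed oocytes and parthenogenetic embryos, grown in vitro from eggs that were activated without sperm, so all embryos carry maternal genomes only. There was 1 library per stage: GV (the immature oocyte, with its germinal vesicle intact), MII (the mature oocyte, arrested in metaphase II), the 2-cell, 4-cell, 8-cell and 16-cell embryo, morula and blastocyst. No group carried a treatment or genotype in the labels beyond its stage, and the sources used here do not say how many oocytes or embryos were sequenced together. With 1 library per stage no difference has a replicate check and no test was possible, so all counts describe these libraries.

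A mammalian oocyte that has reached full size transcribes little, and it stores mRNAs made during its growth. Meiotic maturation from GV to MII and the first cleavages run largely on these stored mRNAs, of which some are kept silent with a short poly(A) tail and gain a longer tail when they are translated. Maternal mRNAs are later degraded, and the embryo starts its own transcription at a stage that depends on the species. FPKM measures a transcript's share of its library. It does not give molecules per oocyte or embryo, and fewer cells of a kind cannot be told apart from less RNA per cell.

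The table pairs no ID with a gene name, and 0 of 28659 IDs matched the RefSeq table of the buffalo assembly NDDB_SH_1. The members are therefore described as IDs without function, and the identity of the oocyte and embryo libraries could not be checked against marker genes. The FPKM values of all IDs summed to 1146980 in GV and 1076937 in MII, with 892286 (8-cell) and 2501133 (morula) as the lowest and highest sums. Sequencing depth is unknown, and a 0 is only a value listed at 0.

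The raised level was short in these libraries, though the choice of members for a high MII value favours a lower level in the next library. The median level of the 188 members went from 4.07 FPKM before maturation (GV) to 32.5 FPKM after it (MII). It was 10.8 FPKM at 2 cells, 3.78 FPKM at 4 cells and 4.60 FPKM at 8 cells, so by the 4-cell library the median was near the GV level. Later medians were 7.98 FPKM at 16 cells, 2.60 FPKM for the morula and 6.37 FPKM for the blastocyst. The 4466 numbered IDs carried over from GV to MII within 1 log2 unit have no GV to MII difference by their choice. Their medians were 45.3 FPKM at 2 cells, 48.0 at 4 cells and 42.2 FPKM at 8 cells.

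**Figure D1:**
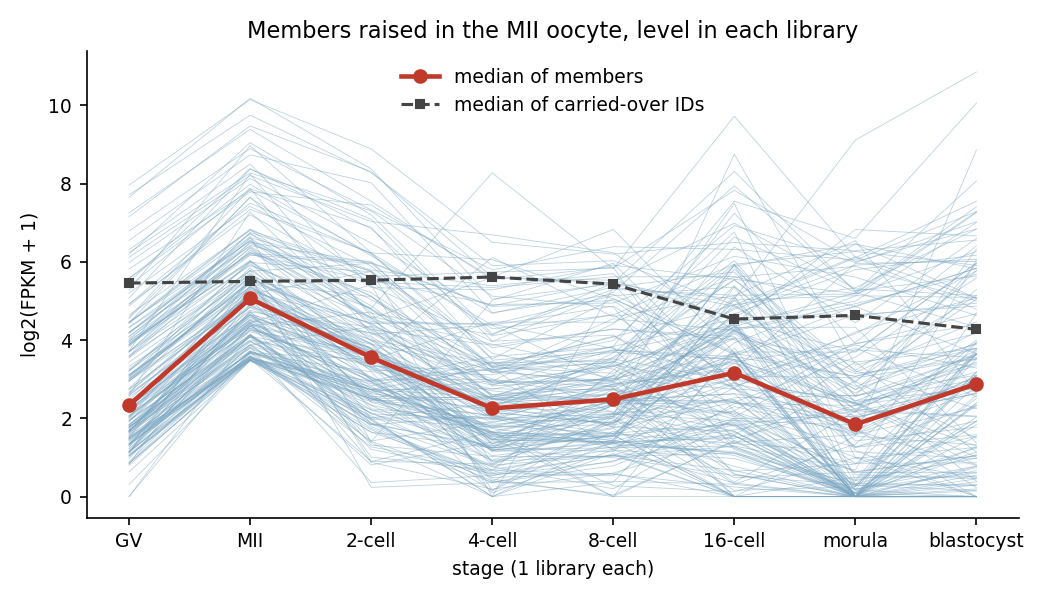
Level of each of the 188 members (thin lines) on the log2(FPKM + 1) scale in the 8 libraries, 1 per stage, with the median of the members (red) and of the 4466 carried-over IDs (dashed). The members' median peaks at 32.5 FPKM in the MII oocyte and is 3.78 FPKM in the 4-cell embryo.

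Together the members made up 0.255% of all FPKM before maturation and 1.56% after it. Their share was 0.639% at 2 cells, 0.221% at 4 cells and 0.257% at 8 cells. In the later libraries it was 0.481% at 16 cells, 0.116% for the morula and 0.336% for the blastocyst. The summed share at 4 and 8 cells was thus close to the share before maturation.

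Most members were low but measured before maturation. In the GV oocyte 1 member was listed at 0, 11 were under 1 FPKM, 118 lay between 1 and 10 FPKM and 59 had 10 FPKM or more. The gain had a median of 2.38 log2 units (interquartile range over members 2.17 to 2.80), 29 members gained 3 log2 units or more and 6 gained 4 or more, and the greatest gain was 4.68. The members therefore lay mostly near the lower limit of the rule. Between 2.0 and 2.2 log2 units there were 56 members, and 71 IDs with 10 FPKM or more in MII were just outside, between 1.8 and 2.0. The members nearest the limit went from 1.87 to 10.5 FPKM and from 55.5 to 226 FPKM, and the nearest IDs outside went from 7.61 to 33.4 FPKM and from 8.33 to 36.2 FPKM. A further 47 IDs gained 2 log2 units but stayed under 10 FPKM in the MII oocyte.

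The greatest gains were those of gene20999 and gene21009. The level of gene20999 was 5.05 FPKM in GV, 154 in MII, 19.6 in the 2-cell, 8.10 in the 4-cell, 6.71 in the 8-cell and 82.4 in the 16-cell library, then 20.8 in the morula and 96.2 FPKM in the blastocyst. It was high in the MII, 16-cell and blastocyst libraries, with 4.35% of its MII value at the 8-cell stage between them. The level of gene21009 was 12.2 FPKM in GV, 304 in MII, 23.4 in the 2-cell, 13.9 in the 4-cell, 8.58 in the 8-cell and 1.96 in the 16-cell library, and it was listed at 0 in the morula and blastocyst. It was high in MII alone, at 7.69% of the MII value by the 2-cell embryo, and did not come back.

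The most abundant member in the MII oocyte was gene15194, chosen after its values were seen. It had 200 FPKM in GV, 1163 in MII, 332 in the 2-cell, 32.1 in the 4-cell, 42.4 in the 8-cell and 3.58 in the 16-cell library and was listed at 0 in the morula and blastocyst. Its 2-cell level lay between GV and MII, and its 4-cell level was well below GV.

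At the 2-cell stage most members were between their GV and MII levels. Of the 188, 159 had a 2-cell value between the GV and the MII value, 24 were below GV and 5 were above MII. The median 2-cell level was 33.8% of the MII FPKM (interquartile range 22.2% to 47.3%). Measured on the log2 scale, the median member kept 37.8% of its gain in the 2-cell embryo (interquartile range 20.1% to 60.4%). At 4 cells the median was -15.4% of the gain, a value below the GV level, and at 8 cells it was -4.34%. After rescaling of all libraries to 1 common sum the 8-cell median was 3.37%, on the other side of the GV level, while the 2-cell and 4-cell medians were 47.2% and -13.2%.

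That the members were chosen for a high MII and a low GV value limits this comparison, because an ID whose value happened to be high in the single MII library would also be lower in the next library. With 1 library per stage this cannot be told apart from a transcript that was raised and then lost. In the 2-cell library, 164 of 188 members (87.2%) lay above their GV value, against 48.4% of the 5996 other numbered IDs with 10 FPKM or more in MII. Among IDs with 1 to under 10 FPKM in GV, a split made after the data were seen, 84.7% of 118 members and 81.3% of 632 other IDs lay above GV. Among IDs with 10 FPKM or more in GV these shares were 89.8% of 59 members and 44.5% of 5364 other IDs. The 632 IDs, with medians of 7.21 FPKM in GV and 13.4 FPKM in MII, were also lower in GV than in MII by the limits that define them, so they are not a neutral comparison.

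By the rule that defined them, at least 10 FPKM and 2 log2 units above GV, 16 of 188 members (8.51%) were still raised in the 2-cell embryo, against a background of 0.631% of the 6184 numbered IDs with 10 FPKM or more in MII. The members' GV level was lower than that of these IDs, which eases the rule, and among IDs with 1 to under 10 FPKM in GV the shares were 7.63% of members and 1.74% of the 632 others. At 4 cells 2 members were raised (1.06%, background 3.10%) and at 8 cells 4 (2.13%, background 1.47%), both near or below the background. No member was raised in both the 2-cell and the 4-cell library. Counted in a row starting with the 2-cell library, 172 members were raised in 0 libraries and 16 in 1. Rows of raised libraries that start later are not part of this count. No member was raised in all 6 later libraries. With all libraries brought to 1 common sum, 13.7% of 204 members were raised in the 2-cell embryo, against 1.00% of the IDs outside the members.

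**Figure D2:**
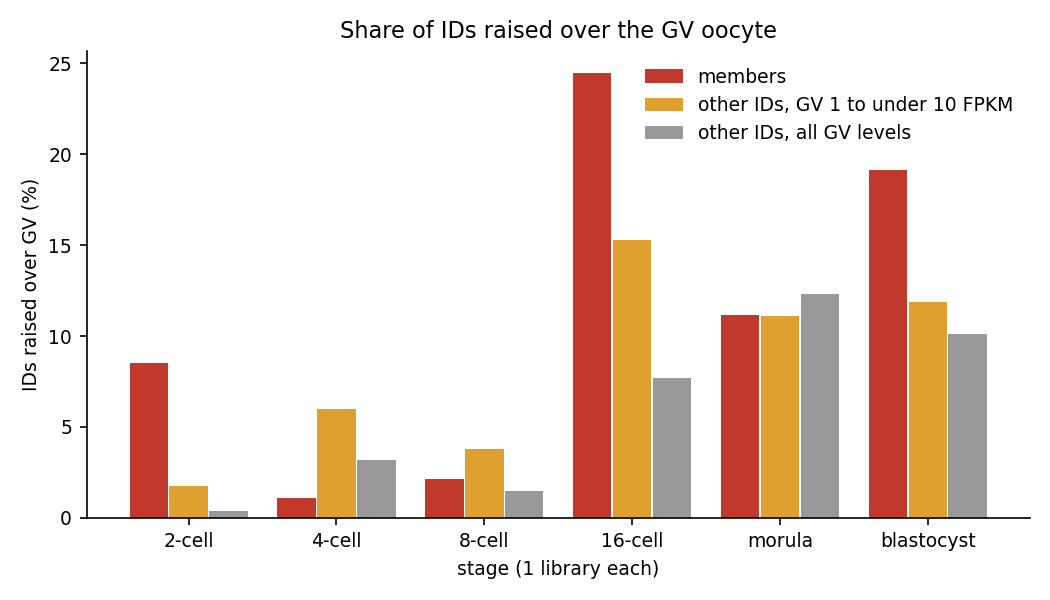
Percent of IDs raised over the GV oocyte (at least 10 FPKM and 2 log2 units above GV) in each later library, 1 library per stage, for the 188 members (red), the 632 other numbered IDs with 1 to under 10 FPKM in GV (yellow) and all 5996 other numbered IDs with 10 FPKM or more in MII (grey). The members' bars are 8.51% at 2 cells, 1.06% at 4 cells and 24.5% at 16 cells.

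The 16 members raised in the 2-cell embryo had 10.4 to 135 FPKM there, with a median of 22.4. Of these, 11 had at least 50% of their MII value in the 2-cell library. They were 9 of the 29 members with a gain of 3 log2 units or more (31.0%) and 7 of the 159 with a smaller gain (4.40%). A greater gain leaves more room above the 2-unit limit, and the median share of the gain kept was 46.2% and 37.3% in these groups. Of the 16, 8 were raised in no library after the 2-cell embryo. The one of those most abundant in MII had 32.8 FPKM in GV, 330 in MII, 135 in the 2-cell, 14.7 in the 4-cell, 16.5 in the 8-cell and 3.15 in the 16-cell library, 0.555 in the morula and 1.07 FPKM in the blastocyst. Its decline was spread over the 2-cell and 4-cell libraries.

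A few members went below the GV level at once. The greatest decreases from MII to the 2-cell embryo were those of gene19758 and gene2266. The level of gene19758 was 1.15 FPKM in GV, 48.0 in MII, 0.178 in the 2-cell, 0.282 in the 4-cell, 0.727 in the 8-cell and 2.86 in the 16-cell library, 0 in the morula and 9.52e-08 FPKM in the blastocyst. It was seen above 3 FPKM in the MII library alone. The level of gene2266 was 17.3 FPKM in GV, 99.4 in MII, 1.64 in the 2-cell, 31.4 in the 4-cell, 61.5 in the 8-cell and 6.53 in the 16-cell library, 0 in the morula and 0.370 FPKM in the blastocyst. It was low in the 2-cell library between higher values on both sides. Over all members, 24 (12.8%) were under their GV value in the 2-cell library, 5 by 1 log2 unit or more and 1 by 2 or more. Of the 6184 numbered IDs with 10 FPKM or more in MII, 3117 were under GV there. These included 865 under it by 1 unit or more and 197 by 2 or more. Being under GV in the 2-cell library was thus less common among the members, which their choice for a low GV value favours. Among IDs with 1 to under 10 FPKM in GV, 15.3% of members and 18.7% of the 632 others were under it. Among IDs with 10 FPKM or more in GV these shares were 10.2% and 55.5%.

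The second cleavage, from 2 to 4 cells, uses neither library of the rule. Across it 44 of 188 members (23.4%) were lower by at least 2 log2 units from a 2-cell level of 10 FPKM or more, against a background of 5.47%, and 3 members (1.60%, background 1.26%) were higher. The median difference was -1.34 log2 units for the members and -0.12 for the 5996 other IDs. Among IDs with 10 FPKM or more in GV, 26 of 59 members (44.1%) and 4.87% of 5364 others were lower. Among those with 1 to under 10 FPKM in GV these shares were 13.6% and 5.22%. The share of members lower at this step was 27.5% after rescaling to the same sum and 21.2% with median-of-ratios scaling, against 5.21% and 4.50% of the other IDs.

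Small differences included, 183 of 188 members (97.3%) were lower in the 2-cell than in the MII library, against 55.8% of the 6184 IDs, a count that the choice of a high MII value favours. Lower again at 4 cells were 158 (84.0%), against 32.7% of the 6184 IDs. Between MII and the 8-cell stage 103 members had their steepest decrease on reaching 2 cells, 82 on reaching 4 cells and 3 on reaching 8 cells. The choice of a high MII value also favours a steepest decrease on reaching 2 cells. This split was not made for the other IDs. By the rule of size 48 members (25.5%, background 2.15%) were lower and 0 (background 0.712%) higher at the first step, which shares the MII library with the choice of members.

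**Figure D3:**
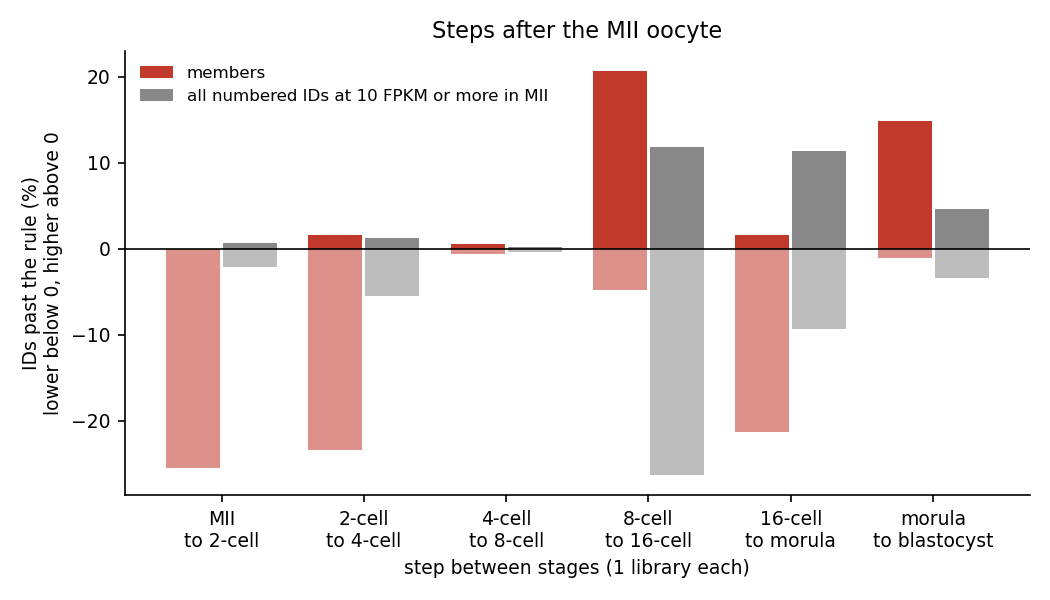
Percent of the 188 members (red) and of all 6184 numbered IDs with 10 FPKM or more in MII (grey) that differ by at least 2 log2 units at each step after the MII oocyte, with higher IDs drawn above 0 and lower IDs below it in a paler shade. The members are lower in 25.5% and 23.4% of cases at the first and second step, and higher in 20.7% from 8 to 16 cells.

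From 4 to 8 cells the members were nearly level. At this step 1 member was higher and 1 lower by 2 log2 units (0.532% each, background 0.194% higher and 0.323% lower). Smaller differences leaned upward: 129 of 188 members (68.6%) were higher in the 8-cell than in the 4-cell library, against 43.4% of the other IDs, with medians of 0.31 and -0.07 log2 units. In the 4-cell library 117 members (62.2%) and 56.2% of the other IDs were below their GV value. In the 8-cell library 100 members (53.2%) and 59.9% of the other IDs were. These shares mix GV levels. Among IDs with 1 to under 10 FPKM in GV, 58.5% of members and 41.9% of others were below GV at 4 cells. At 8 cells 48.3% and 39.6% were. Among IDs with 10 FPKM or more in GV, 76.3% of members and 57.8% of others were below it at 4 cells, and 67.8% and 62.3% at 8 cells. For 50 members the 2-cell, 4-cell and 8-cell values were all within 1 log2 unit of GV, a count not made for other IDs. Taken singly, 53.2%, 59.6% and 67.0% of members were within 1 unit of GV in these libraries. Of the 6184 IDs with 10 FPKM or more in MII, 78.7%, 52.8% and 59.6% were.

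The exceptions at 4 cells were gene19231 and gene6638. The level of gene19231 was 5.35 FPKM in GV, 40.6 in MII, 11.4 in the 2-cell, 68.3 in the 4-cell, 23.2 in the 8-cell and 34.2 in the 16-cell library, 92.2 in the morula and 5.35 FPKM in the blastocyst. The level of gene6638 was 13.9 FPKM in GV, 58.8 in MII, 27.1 in the 2-cell, 310 in the 4-cell, 55.7 in the 8-cell and 846 in the 16-cell library, 68.3 in the morula and 26.7 FPKM in the blastocyst. Both had a second, separate peak at 4 cells after a lower 2-cell value, and both were named after their values were seen. The 4 members raised at 8 cells had 11.8 to 39.6 FPKM there and were also raised in the next library, at 16 cells. All 6 members raised at 4 or 8 cells were raised at 16 cells or later, a share not counted for the other IDs.

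One of these 4, gene5899, was raised in 5 of the 6 later libraries, more than any other member, and was also named after its values were seen. It had 4.03 FPKM in GV, 20.7 in MII, 41.8 in the 2-cell, 0 in the 4-cell, 39.6 in the 8-cell and 32.4 in the 16-cell library, 554 in the morula and 1854 FPKM in the blastocyst. Its values were above MII in each later library but the 4-cell library, where it was listed at 0.

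**Figure D4:**
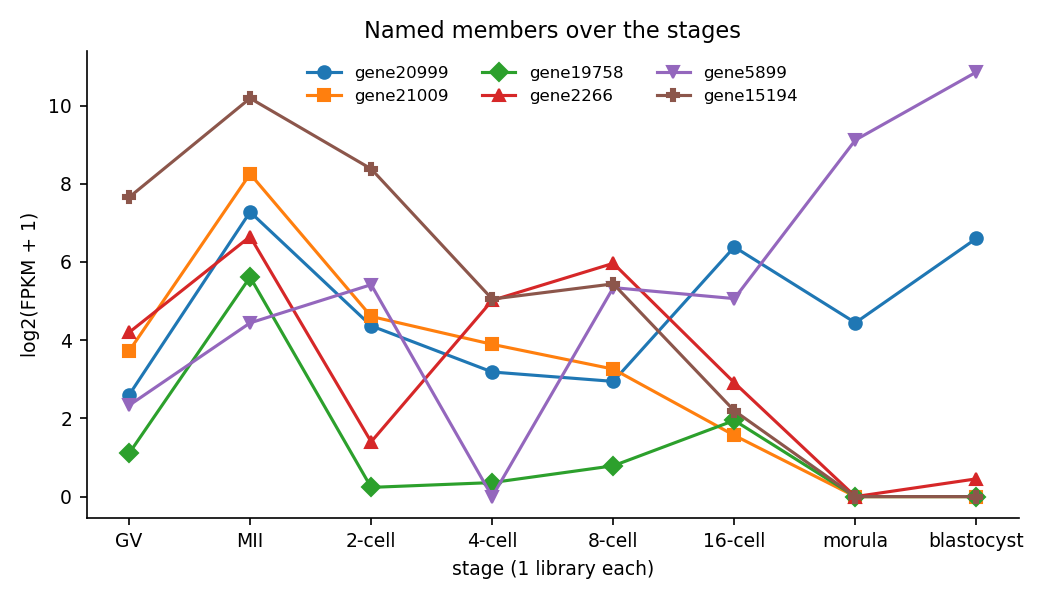
Level of the 6 IDs gene20999, gene21009, gene19758, gene2266, gene5899 and gene15194 on the log2(FPKM + 1) scale in the 8 libraries, 1 point per library. All are higher in MII than in GV, 5 of the 6 are lower at 2 cells than in MII, and gene5899 reaches 1854 FPKM in the blastocyst.

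A part of the members was high again from the 16-cell stage on. In the 16-cell embryo 46 members (24.5%, background 8.20%) were raised over GV, with 10.4 to 846 FPKM and a median of 40.0. In the morula 21 members (11.2%, background 12.3%) were raised and in the blastocyst 36 (19.1%, background 10.4%). The morula share was near the background. The members' GV levels were lower than those of the other IDs (medians 4.07 and 46.6 FPKM), which leaves more room above GV. Among IDs with 1 to under 10 FPKM in GV, 33 of 118 members (28.0%) and 15.3% of 632 other IDs were raised at 16 cells. In the morula these shares were 11.9% and 11.1%, and in the blastocyst 22.0% and 11.9%. Within this range the members still had the lower GV level, with medians of 2.57 and 7.21 FPKM, so the groups are not matched. With all libraries brought to 1 common sum 4.41% of the members were raised in the morula, and 10.3% were in the blastocyst, against 4.90% and 4.71% of the other IDs.

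In all, 64 members (34.0%) were raised in the 16-cell, morula or blastocyst library, against 18.0% of the 6184 IDs and 24.2% of the 632 other IDs with 1 to under 10 FPKM in GV. Of the 64, 51 (27.1% of members, background 16.7%) were raised in none of the 2-cell, 4-cell and 8-cell libraries. Of the 64, 36 were raised in 1 of the 3 libraries (19.1% of members, background 8.55%), 17 in 2 (9.04%, background 5.93%) and 11 in all 3 (5.85%, background 3.49%). The 16-cell library alone held 23 members and the blastocyst alone 12, against 190 and 136 of the 6184 IDs. For 33 of the 46 members raised at 16 cells the level was above that of the MII oocyte, and so it was for 27 of the 36 in the blastocyst. The MII library held the highest value of all 8 for 136 members, and the 16-cell and blastocyst libraries for 21 each. The choice of members for a high MII value favours the MII count. Neither these counts nor those of raised levels above MII were made for the other IDs.

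By the median difference over all members, the later steps, which again use neither library of the rule, went up, down and up. These medians were 0.34, -0.96 and 0.59 log2 units. From 8 to 16 cells the median was 0.54 for the 118 members with 1 to under 10 FPKM in GV. It was -0.20 for the 59 with 10 FPKM or more in GV, so these did not go up at that step. From 8 to 16 cells 39 members (20.7%, background 11.9%) were higher and 9 (4.79%, background 26.3%) were lower. From 16 cells to the morula 3 members (1.60%, background 11.4%) were higher and 40 (21.3%, background 9.36%) lower. After rescaling to the same sum 26.96% of members and 17.15% of the other IDs were lower at that step, against 21.3% and 8.99% before. From the morula to the blastocyst 28 members (14.9%, background 4.67%) were higher and 2 (1.06%, background 3.43%) lower. Among IDs with 1 to under 10 FPKM in GV, 20.3% of members and 11.4% of others were higher from 8 to 16 cells. In this range 17.8% and 10.8% were lower in the morula, and 15.3% and 6.49% were then higher in the blastocyst. With 10 FPKM or more in GV these shares were 16.9% and 11.6%, 27.1% and 8.78%, and 13.6% and 4.1%. For 99 members (52.7%) the morula value was below both the 16-cell and the blastocyst value, against 22.5% of the other IDs. The members' 8-cell median of 4.60 FPKM, against 37.7 FPKM for the other IDs, leaves few of them able to count as lower from 10 FPKM or more. Of the 188 members, 35 were listed at 0 in the morula and 20 in the blastocyst, against 382 and 277 of the 6184 IDs. With a single morula library, its stage and its preparation cannot be told apart.

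By abundance in MII, the late counts were lowest among the 34 members with 100 FPKM or more, of which 3 (8.82%) were raised in the 16-cell, morula or blastocyst library. The share was 29 of 64 (45.3%) at 30 to under 100 FPKM and 32 of 90 (35.6%) under 30 FPKM. The IDs outside the members had 15.2%, 16.0% and 20.2% in the same order. The abundant members had a median of 39.3 FPKM in GV, 244 in MII, 73.7 in the 2-cell, 19.9 in the 4-cell, 33.7 in the 8-cell, 21.3 in the 16-cell, 4.62 in the morula and 12.1 FPKM in the blastocyst library. Their higher GV level also makes the rule harder to meet later, since 4-fold more than GV is a higher value for them.

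**Figure D5:**
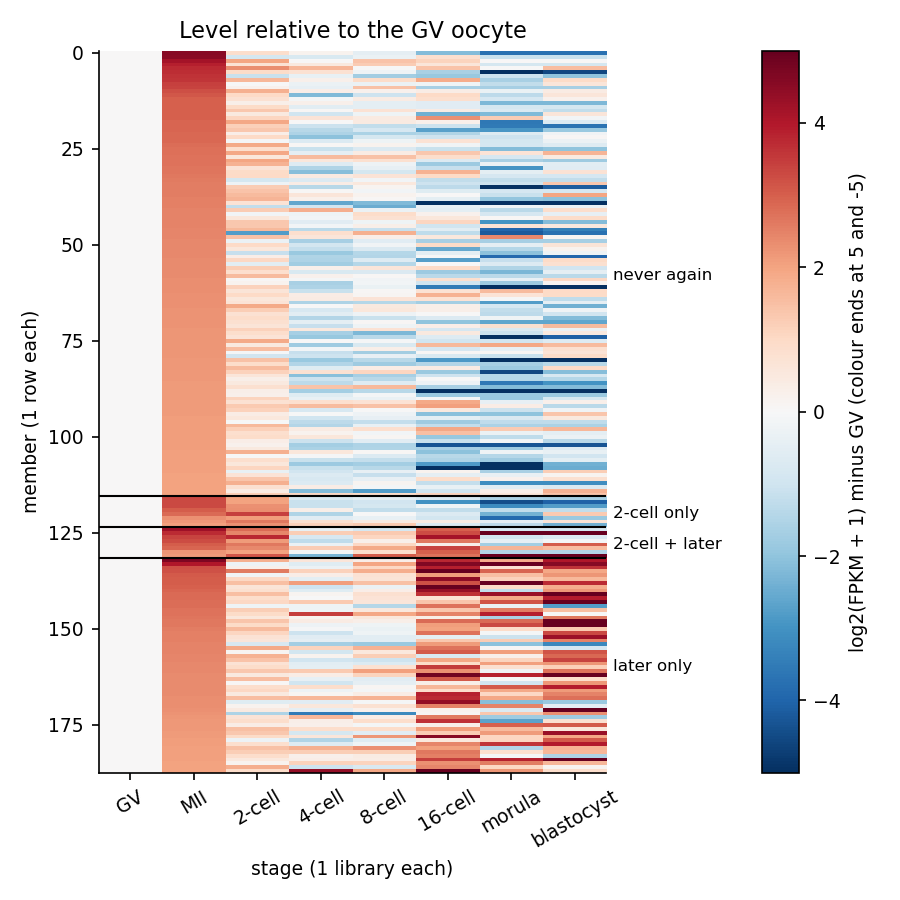
Level of each of the 188 members (rows) relative to its GV oocyte level, as a difference of log2(FPKM + 1), in the 8 libraries. Rows are grouped into 116 members raised in no later library, 8 raised in the 2-cell embryo only, 8 raised in the 2-cell embryo and again later, and 56 raised only after it. The red of the MII column is paler at 2 cells, nearly gone at 4 and 8 cells, and returns from 16 cells on in the lower groups.

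By duration the members fell into 4 groups. The 116 members (61.7%) raised in no later library had medians of 4.30 FPKM in GV, 34.2 in MII, 10.2 in the 2-cell, 3.79 in the 4-cell, 4.54 in the 8-cell, 3.76 in the 16-cell, 0.798 in the morula and 3.14 FPKM in the blastocyst library. The 56 (29.8%) raised only after the 2-cell embryo had 4.56 FPKM in GV, 32.8 in MII, 7.11 in the 2-cell, 4.04 in the 4-cell, 5.15 in the 8-cell, 27.7 in the 16-cell, 13.1 in the morula and 31.8 FPKM in the blastocyst library. Up to the 8-cell stage the medians of these 2 groups differed less than at 16 cells. The grouping itself uses the values of all later libraries. Neither group was raised in the 2-cell library by definition, and the 116 were not raised in the 4-cell or 8-cell library either. Both the early likeness and the later parting are thus partly fixed by the grouping. The one of the 56 most abundant in MII had 20.8 FPKM in GV, 201 in MII, 24.8 in the 2-cell, 16.6 in the 4-cell, 43.2 in the 8-cell and 317 in the 16-cell library, 36.8 in the morula and 268 FPKM in the blastocyst. The 8 members raised in the 2-cell embryo only and the 8 raised there and again later had 2-cell medians of 57.2 and 16.0 FPKM.

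For the opposite change at maturation, the median share kept was larger in each later library. There were 424 numbered IDs with 10 FPKM or more in GV that were at least 2 log2 units lower in MII, and they share both libraries with the members. Their median ID kept 54.8% of its decrease at 2 cells, 76.1% at 4 cells and 75.5% at 8 cells, against 37.8%, -15.4% and -4.34% of the gain for the members. At 16 cells, in the morula and in the blastocyst it kept 59.0%, 23.7% and 38.2%, against 12.2%, -30.0% and 3.32%. These shares are not symmetric, since a later decrease in level lowers the kept gain and raises the kept decrease. They therefore do not show that losses at maturation last longer than gains. At 4 cells 24.1% of the 424 IDs were within 1 log2 unit of their GV value and 49.8% within 1 unit of MII. Of the members, 59.6% were within 1 unit of GV at 4 cells and 6.38% within 1 unit of MII. No test of this difference was possible with 1 library per stage.

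Unannotated transcripts, which the authors numbered as new genes, added 28 IDs by the same rule and are not members. Their medians, from GV through to 8 cells, were 2.42, 26.2, 4.07, 1.49 and 1.04 FPKM. In the 2-cell embryo 5 of the 28 were raised, in the 16-cell embryo and the morula 0, and in the blastocyst 3. At 2 cells the median kept gain was 15.2% for them and 37.8% for the members, and 60.7% against 25.5% were at least 2 log2 units under MII. Of all 712 new-gene IDs with 10 FPKM or more in MII, 0.843% were raised at 2 cells, 2.67% at 16 cells, 2.11% in the morula and 2.39% in the blastocyst.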

How the data were processed

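RNA sequencing of 8 buffalo libraries, 1 per stage, was analysed. The authors deposited a table of FPKM values for 28659 IDs, 18220 of them numbered, per the file's name. No aligner, build, annotation or filter is named in the sources used here. The labels' extraction text names another tissue, so nothing was taken from it. Columns were tied to stages by the samples' descriptions and titles. Read counts could not be recovered: in successive libraries, at most 6.06% of low IDs (0.005 to 0.3 FPKM in both) shared 1 ratio to within 0.01 log2 units. Depth is thus unknown.

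Values were taken to log2(FPKM + 1), which understates changes of low IDs. A call was a difference of 2 log2 units with 10 FPKM or more in the higher library, and no test was run. Background shares are over the 6184 numbered IDs with 10 FPKM or more in MII. Named IDs were the 2 with the greatest gain, the 2 with the greatest decrease from MII to the 2-cell embryo and up to 2 raised in all 6 later libraries, of which there were 0. The members and lists were chosen with earlier results of these data known. Lists of polyadenylation, cell cycle, histone and cell type marker genes were not scored, since 0 IDs matched a symbol. Also tried were a pseudocount of 0.1, minimums of 0 and 30 FPKM, 2 scalings, 3 log2 units and adding new-gene IDs. Python 3.11.15, NumPy 2.4.6, pandas 2.3.3, SciPy 1.17.1 and Matplotlib 3.10.9 were used.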

Additional observations from a re-analysis of the deposited data

How the results depend on the processing

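The 188 members became 189 to 236 with a pseudocount of 0.1, no minimum, either scaling or new-gene IDs included, 98 with a minimum of 30 FPKM and 29 with 3 log2 units, which are stricter rules. Rescaling each library to the same sum shifted the median difference of MII from GV by 0.09 log2 units and shared 173 of its 204 members with the 188. It gave 13.7% raised in the 2-cell library, 4.41% in the morula and 10.3% in the blastocyst, and a kept gain of 3.37% at 8 cells, which was below 0 before. Median-of-ratios scaling shared 174 of its 189 members. With a minimum of 30 FPKM, 92 members were not raised in the 2-cell library, 63 were raised in no later library and 15.3% were lower in the morula than at 16 cells. With 3 log2 units, 28 were not raised at 2 cells and 20 in no later library, 3.45% were raised at 2 cells and 0% at 4 and 8 cells, 3.45% were higher in the blastocyst than in the morula, and the kept gain at 8 cells was 8.30%. No member was raised in all 6 later libraries under any of the 8 alternatives run. Between 21.3% and 27.6% were raised at 16 cells under them. Alternatives for the steps, the kept gain and the other IDs, and the split by GV level, were chosen after seeing the data. Except for the stricter rules, the cause of these moves was not tested. No paired analysis was possible because each stage has 1 library. Since depth is unknown, how far counting limits low values cannot be given.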
